A study of Rattus norvegicus with 49 samples.

Results

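The CA1 region of the hippocampus was compared between Fisher 344 rats of 12 months and of 6 months, 2 adult ages, with 9 animals and 9 Affymetrix RAE 230A arrays in each group. The 18 arrays were taken by their age label from 49 in a series that also holds 9 arrays of 3 months, 9 of 9 months and 13 of 23 months. The 3-month arrays, from young rats, were not used in the comparison, and they enter only 2 alternatives, a fit of all 49 arrays and a signal filter over them. The arrays of 9 and 23 months, which share no animal with the comparison, served as a separate set. Every animal was an inbred Fisher 344 rat with no drug or transgene named in the labels, had been trained in a water maze, and gave 1 array from the left CA1. The sex of the animals is not given in the sources used here. The text describing the series puts the oldest group at 25 months in one place, and the 23 months of the sample labels is used here. The replicates were separate animals, so an error given here includes variation between animals, and it is limited by how few arrays each age had.

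CA1 is the field of pyramidal neurons that sends the main output of the hippocampus, and it is among the regions needed for spatial learning. Besides neurons it holds astrocytes, oligodendrocytes and microglia, the resident immune cells of the brain, which engulf debris, degrade it in lysosomes, present peptides on class I and class II histocompatibility molecules and make complement, a family of secreted proteins that tag targets for removal. In ageing rodent brain, transcripts of these glial systems are known to rise. The tissue is a mixture of cells, so fewer cells of a type and less RNA per cell cannot be told apart.

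The values were MAS5 signals, the fluorescence intensity of a probe set (the group of short probes for a transcript) as scaled by the authors. Of 15923 probe sets, those with 1 gene symbol and a signal of at least 100 on 5 or more of the 18 arrays were tested, which left 9166 probe sets of 7824 genes. Differences are given on the log2 scale as 12 months minus 6 months, so that 1 means a doubling, with the standard error (SE) of limma, a linear model fitted to all probe sets together. A probe set was called changed at a Benjamini-Hochberg adjusted p under 0.05. Array medians were 208.0 to 224.9, and each array had 10193 to 10924 probe sets that reached 100. The log2 ratio of 3′ to 5′ signal, a sign of RNA degradation, averaged 0.299 ± 0.035 at 12 months and 0.282 ± 0.061 at 6 months for GAPDH (SD, n = 9 each, two-sided exact permutation p = 0.483, 0.966 adjusted over 2 ratios). For actin it was 0.836 ± 0.154 at 12 months and 0.836 ± 0.133 at 6 months (exact permutation p = 0.995).

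The tissue was checked against markers of CA1. Wfs1, an endoplasmic reticulum protein enriched in CA1 pyramidal cells, had signals of 4901, 5581 and 6707 (lowest, median and highest) at 12 months, against 4263, 5381 and 6550 at 6 months. Mpped1, also enriched in CA1, had a median of 3853 at 12 months and 4002 at 6 months. Both were high on all 18 arrays. Prox1, the transcription factor of dentate granule cells, which lie next to CA1, ranged between 344 and 765 at 12 months and between 286 and 889 at 6 months. Transthyretin (Ttr), the carrier protein made by choroid plexus, ranged between 109 and 657 at 12 months and between 111 and 488 at 6 months. The ranges of the groups overlapped for both. Of 8 choroid plexus and ependyma probe sets 5 were higher at 12 months, and the summed signal of that list was 2706 to 3794 at 12 months and 2782 to 3635 at 6 months. Of 6 dentate granule cell probe sets 1 was higher, with sums of 3969.6 to 5965 at 12 months and 3719.6 to 6442 at 6 months. Of 10 probe sets of the pyramidal fields CA3 and CA2, 2 were higher, with a median difference of −0.05 (log2). The sums of that list were 11024 to 12953 at 12 months and 10947 to 13476 at 6 months. Of 24 endothelial probe sets 12 were higher. The part of neighbouring tissue in the differences between ages was not tested. The haemoglobin transcript Hbb did not pass the filter and reached 83.9 at most at 12 months and 64.4 at 6 months.

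No probe set passed the test between 12 and 6 months. Of 9166 probe sets tested with limma, 0 were called (0.0%), and the smallest adjusted p was 0.533, for Rpa3. At an unadjusted p under 0.05 there were 221 probe sets (2.41%), 111 of them higher at 12 months (1.21%) and 110 lower (1.2%), where evenly spread p-values would give 458. A plain analysis of variance gave 0 called and 234 at an unadjusted p under 0.05. At 12 months 48.9% of all 9166 probe sets were higher. The median size of a difference was 0.05 and the largest was 0.97. The 2 groups of 9 arrays did not overlap for 1 probe set, Rpa3, which was lower at 12 months (0.0109% of those tested), and for 0 probe sets that were higher (0.0%).

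The arrays bounded most differences within a 1.5-fold change, which leaves room for smaller ones. The median SE was 0.09, and the 95% confidence interval lay inside a 1.5-fold change in either direction for 8880 probe sets (96.9%) and inside a 2-fold change for 9137 (99.7%). When the probe sets were split by mean signal into 3 equal parts, 91.0% of the lowest part had an interval inside 1.5-fold, as did 99.7% of the middle part and 99.9% of the highest part. The scatter of difference against p-value shows the few probe sets that stood at its edge.

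**Figure D1:**
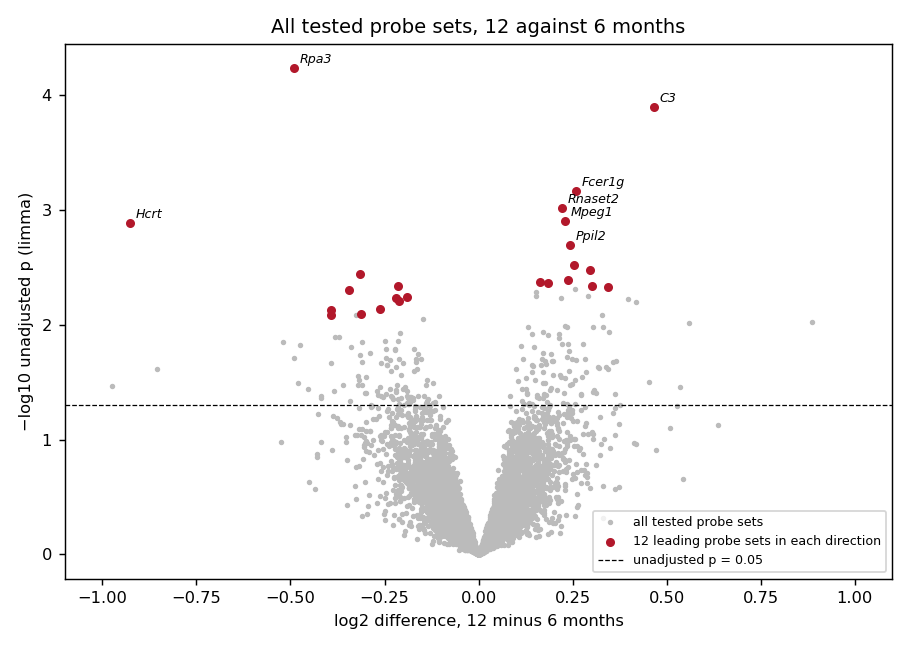
Each point is 1 of 9166 probe sets, with the log2 difference (12 minus 6 months) on the horizontal axis and −log10 of the unadjusted limma p on the vertical axis. The red points are the 12 probe sets of smallest p in each direction, of which Rpa3 and C3 stand highest, and the dashed line marks p = 0.05, above which 221 points lie.

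The probe set highest in the order of p among those higher at 12 months was that of C3, the central component of complement. Its signals were 367, 457 and 559 (lowest, median and highest) at 12 months, against 233, 354 and 403 at 6 months. The mean was 463 ± 70.2 at 12 months and 336 ± 54.1 at 6 months (SD, n = 9 each), a difference of 0.47 ± 0.10 (SE) with a 95% confidence interval of 0.26 to 0.68. On 7 of 9 arrays of 12 months C3 lay above every array of 6 months, and the groups overlapped in the others. Its limma p was 1.26e-04 before adjustment and 0.579 after it, so C3 did not pass.

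Fcer1g encodes the common gamma chain through which Fc receptors of microglia and macrophages signal. It had signals of 911, 1028 and 1174 at 12 months, against 710.2, 873 and 989 at 6 months, a difference of 0.26 ± 0.07 (limma p = 6.8e-04). Of the 12-month arrays, 5 of 9 were above all 6-month arrays. Rnaset2, a lysosomal ribonuclease, had signals of 1122, 1265 and 1329 at 12 months, against 950.4, 1063 and 1294 at 6 months, a difference of 0.22 ± 0.06 (limma p = 9.6e-04). For Rnaset2, 3 of 9 arrays of 12 months lay above the 6-month range. The adjusted p was 0.9999 for both genes and for each of the other probe sets named at 12 against 6 months, apart from those of C3 and Rpa3.

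Mpeg1, a pore-forming protein of macrophages, averaged 902 ± 77.7 at 12 months and 770.03 ± 67.8 at 6 months (SD, n = 9 each), a difference of 0.23 ± 0.06, and its second probe set, with means of 120.4 at 12 months and 102 at 6 months, was higher by 0.25 ± 0.13. Cd53, a tetraspanin of leukocytes and microglia, was higher by 0.25 ± 0.08. Gm2a, the activator protein that presents gangliosides to a lysosomal hexosaminidase, was higher by 0.30 ± 0.09. Npc2, which carries cholesterol out of lysosomes, averaged 2445 ± 202 at 12 months and 2179 ± 125 at 6 months (SD, n = 9 each), a difference of 0.16 ± 0.05. The remaining 5 of the 12 leading probe sets on this side were those of Ppil2, a cyclophilin-like protein (0.24), Evi2a (0.24), Tmem176a, a membrane protein of immune cells (0.19), Ap1m1, a subunit of a clathrin adaptor (0.30), and Tmod1, which caps actin filaments (0.34). The second probe set of Tmod1 differed by 0.06 ± 0.09, which is within its error.

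Rpa3, a subunit of the protein that coats single-stranded DNA, had the smallest p of all. Its signals were 121, 149 and 163 at 12 months, against 169, 189 and 264 at 6 months. All 9 arrays of 12 months lay below all 9 arrays of 6 months, and the difference was −0.49 ± 0.10 with a 95% confidence interval of −0.70 to −0.28 (limma p = 5.81e-05, adjusted p = 0.533). In a fit of all 49 arrays, which share 1 estimate of the spread, the same difference had an adjusted p of 0.030, the only call that any alternative gave. The signal of Rpa3 averaged 205 at 6 months, 161 at 9 months, 145 at 12 months and 169.6 at 23 months, so among these 4 ages it was highest at 6 months and lowest at 12 months.

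Hcrt, the precursor of the neuropeptide hypocretin (orexin), which is made by neurons of the hypothalamus, had signals of 20.8, 73.2 and 105 at 12 months, against 75.0, 111 and 222 at 6 months. The difference was −0.93 ± 0.25 (limma p = 0.0013), but the signal reached 100 on only 1 of 9 arrays of 12 months and on 7 of 9 of 6 months. Hcrt met the filter through the 6-month arrays, at values near the lower end of the measured range. At 9 months Hcrt averaged 65.3. Syt17, a synaptotagmin-like protein, had signals of 142, 205 and 246 at 12 months, against 212, 240.4 and 334 at 6 months, a difference of −0.31 ± 0.10 (limma p = 0.0036). Its second probe set, with means of 1123 at 12 months and 1188 at 6 months, differed by −0.08 ± 0.06, which is about its error.

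**Figure D2:**
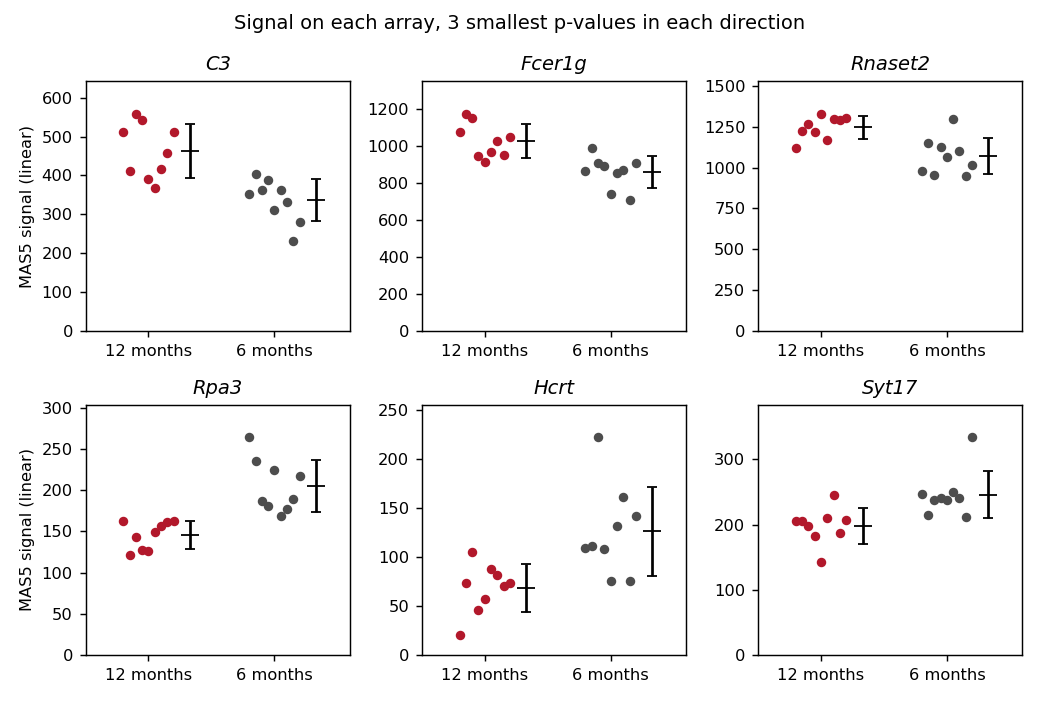
The vertical axis is the MAS5 signal on a linear scale from 0, each point is 1 animal, 9 at 12 months (red) and 9 at 6 months (grey), and the bar is the mean with 1 SD. The groups are apart for Rpa3 alone, and C3, Fcer1g, Rnaset2, Hcrt and Syt17 overlap.

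The other leading probe sets on the lower side belonged to genes of unlike roles. They were Tulp3, a tubby-like protein of cilia (−0.21), Elk1, a transcription factor that binds with serum response factor (−0.35), Snap29, a SNARE protein of membrane fusion (−0.19), Slc25a23, a mitochondrial carrier (−0.22), Vmp1, a membrane protein of autophagy (−0.21), Nosip (−0.26), Col4a5, a chain of basement membrane collagen (−0.31), Psip1, a chromatin-binding protein (−0.39), and Kcnj6, a potassium channel opened by G proteins (−0.39). The 3 probe sets of Kcnj6 did not share a direction. They differed by −0.39 ± 0.13, 0.37 ± 0.20 and −0.06 ± 0.08, and the last of them had means of 914 at 12 months and 957 at 6 months.

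Complement, microglial, lysosomal and histocompatibility genes were then described as whole lists. The counts are set against all 9166 probe sets, of which 48.9% were higher at 12 months and 2.41% had an unadjusted p under 0.05. Of 9 tested complement probe sets, 6 were higher at 12 months, with a median of 0.07, against −0.0018 over all 9166. C3 was the only member with an unadjusted p under 0.05. Serping1, the inhibitor of the first complement protease, was higher by 0.28 ± 0.15, and C1qa, C1qb and C1qc, the 3 chains of the recognition protein C1q, were higher by 0.09 ± 0.06, 0.10 ± 0.07 and 0.07 ± 0.09. C5ar1, a receptor for a complement fragment, was lower by 0.23 ± 0.16. None of these passed.

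Of 22 tested probe sets of the microglia list, 17 were higher at 12 months (48.9% of all were) and 4 had an unadjusted p under 0.05 (2.41% of all had), those of Fcer1g, Cd53, Fcgr2b and Tyrobp, all of them higher. The list median was 0.06, and the 5 probe sets that were lower went down to −0.19. Fcgr2b, an inhibitory Fc receptor, averaged 142 ± 22.1 at 12 months and 113 ± 14.3 at 6 months (SD, n = 9 each), and Tyrobp, an adaptor of microglial receptors, averaged 238.6 at 12 months and 204.8 at 6 months. Some members much used as microglial markers are given as well. Tmem119 had means of 262 at 12 months and 263 at 6 months, Cx3cr1, the fractalkine receptor, was higher by 0.05 ± 0.13, Csf1r, the receptor on which microglia depend, by 0.06 ± 0.06, and P2ry12, a purine receptor, by 0.06 ± 0.08 and 0.06 ± 0.12 on its probe sets. The summed signal of the list was 10124 to 12277 at 12 months and 9329 to 11883 at 6 months, ranges that overlapped. The part of microglial number in these differences was not tested.

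Of 35 tested lysosomal probe sets, 29 were higher at 12 months (48.9% of all were) and 6 had an unadjusted p under 0.05, all of them higher (1.21% of all were), with a list median of 0.06. Besides Gm2a and Npc2 these were Lamp2, a glycoprotein of the lysosomal membrane (0.23 ± 0.08), Ctsd, the aspartic protease cathepsin D (0.14 ± 0.06), Grn, the precursor of granulins (0.13 ± 0.06), and Ctsz, cathepsin Z (0.30 ± 0.14). Ctsd averaged 2677 ± 283 at 12 months and 2421 ± 157 at 6 months (SD, n = 9 each). Ctss, cathepsin S, which is listed with microglia, the lysosome and class II alike, averaged 4665 at 12 months and 4142 at 6 months and was higher by 0.18 ± 0.09. Neu1, a sialidase, was higher by 0.12 ± 0.09, while Ctsk, cathepsin K, was lower by 0.18 ± 0.10.

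Of 15 probe sets of class I and the immunoproteasome, 12 were higher at 12 months, with a median of 0.07. B2m, Psmb9 and Psme2 had an unadjusted p under 0.05. B2m, the light chain of class I molecules, averaged 6409 ± 324 at 12 months and 5934 ± 368 at 6 months (SD, n = 9 each), a difference of 0.11 ± 0.04, and its second probe set was higher by 0.08 ± 0.08. Psmb9, a catalytic subunit of the immunoproteasome, was higher by 0.35 ± 0.13. It reached a signal of 100 on 8 of 9 arrays of 12 months and on 3 of 9 of 6 months, so it met the filter through the 12-month arrays and its difference is no support for the list. Psme2, a proteasome activator, was higher by 0.17 ± 0.07. Of 6 class II probe sets 4 were higher. RT1-Da, a class II alpha chain, averaged 136 ± 27.1 at 12 months and 106 ± 23.8 at 6 months, and Cd74, the invariant chain, averaged 209.6 ± 37.2 at 12 months and 189 ± 47.0 at 6 months. RT1-Ba, also an alpha chain, was lower by 0.25 ± 0.36, at means of 86.0 at 12 months and 99.6 at 6 months. RT1 genes are near copies of each other, so a probe set may read more than 1 of them. The interferon response list, which shares Psmb9, had 7 of 16 probe sets higher and a median of −0.03.

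The neuronal lists given here had medians slightly below 0, and fewer of their probe sets were higher than the 48.9% of all. Of 12 CA1 pyramidal probe sets 4 were higher (33.3%) and 0 had an unadjusted p under 0.05, with a median of −0.01. Wfs1 differed by 0.04 ± 0.08, Dkk3, a secreted Wnt modulator, by −0.02 ± 0.06, and Pou3f1, a transcription factor, by −0.15 ± 0.09. The pan-neuronal list had 12 of 32 probe sets higher (37.5%) and a median of −0.01, with 0 under p of 0.05. Of 57 probe sets of glutamate receptors and their scaffold, 23 were higher (40.4%), with a median of −0.04. Among the 57, 2 had an unadjusted p under 0.05 and were lower, a share near the 2.41% of all probe sets. These were Grm5, a metabotropic receptor (−0.52 ± 0.20, at means of 107 at 12 months and 148 at 6 months), and Homer1, which links such receptors to their stores of calcium (−0.19 ± 0.09). For that probe set of Homer1 the median was 737 at 12 months and 727 at 6 months, the other way from the means, and the highest 6-month array had 1132. The other tested probe sets of Homer1 differed by −0.22 ± 0.11, −0.04 ± 0.06, −0.07 ± 0.23 and 0.02 ± 0.13. Of other receptors in the list, Gria2, an AMPA receptor subunit, differed by −0.09 ± 0.06 and Grin1, the obligatory NMDA receptor subunit, by −0.11 ± 0.08.

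The animals had learned a task a day or less before the tissue was taken, which makes genes induced by activity of interest. Of 41 probe sets of that list 16 were higher, and the median was −0.04. The 2 with an unadjusted p under 0.05 were Jun, lower by 0.17 ± 0.08, and the probe set of Homer1 given above, which is on this list too. Egr1, a zinc finger factor of recent activity, averaged 2641 at 12 months and 2405 at 6 months and was higher by 0.13 ± 0.09, while Egr3 and Nr4a2 were lower by 0.33 ± 0.19 and 0.15 ± 0.13. The members did not share a direction.

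Of 50 potassium channel probe sets 26 were higher at 12 months, with a median of 0.0055. Of the 50, 3 had an unadjusted p under 0.05 (6.0%, where 2.41% of all had), and these were lower. They were 1 of Kcnj6, whose probe sets did not share a direction, and those of Kcnip4 (−0.17 ± 0.07) and Kcnip2 (−0.23 ± 0.10). Kcnip4 and Kcnip2 are calcium-binding subunits of the channels that carry the transient outward current. In the extracellular matrix list 24 of 49 probe sets were higher, with a median of −0.00084. Of the 49, 3 had an unadjusted p under 0.05, where 2.41% of all had, and these were lower. They were Col4a5, Lamb1, a laminin chain (−0.25 ± 0.10), and Mmp14, a membrane-bound metalloprotease (−0.42 ± 0.19).

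Glial lists other than microglia had medians slightly above 0. Of 27 myelin and oligodendrocyte probe sets 20 were higher, with a median of 0.04, and the 7 that were lower went down to −0.17. The summed signal of that list was 80110 to 109150 at 12 months, a range that enclosed the 85081 to 99653 at 6 months. Qdpr, which regenerates tetrahydrobiopterin and is abundant in oligodendrocytes, averaged 5811 ± 474 at 12 months and 5222 ± 296 at 6 months (SD, n = 9 each), and Apod, a lipocalin of myelinating cells, averaged 2822 ± 329.8 at 12 months and 2495 ± 211 at 6 months. Mobp, Mog and Mag, myelin proteins proper, were higher by 0.08 ± 0.06, 0.08 ± 0.07 and 0.11 ± 0.11. Of 36 astrocyte probe sets 24 were higher, with a median of 0.02. Id3, an inhibitor of basic helix-loop-helix factors, was higher by 0.17 ± 0.07, and Gfap, the intermediate filament of astrocytes, averaged 6901 ± 685 at 12 months and 6680 ± 549 at 6 months, a difference of 0.04 ± 0.06.

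Of 42 probe sets of cytosolic ribosomal proteins 34 were higher at 12 months, but the median was 0.03 and 1 had an unadjusted p under 0.05, that of Rps9 (0.13 ± 0.05). Rpl7a was higher by 0.12 ± 0.06 and Rpsa by 0.08 ± 0.05. Over all 48 lists the medians lay between −0.11 and 0.13, 25 above 0 and 23 below, and 0 of their probe sets passed. The lists share members, so they are not independent of each other. At 23 against 9 months the choroid plexus and ependyma list had a median of 0.31, beside 0.34 for microglia, 0.37 for complement and 1.08 for class II, and the part of choroid plexus in the older pair was not tested.

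**Figure D3:**
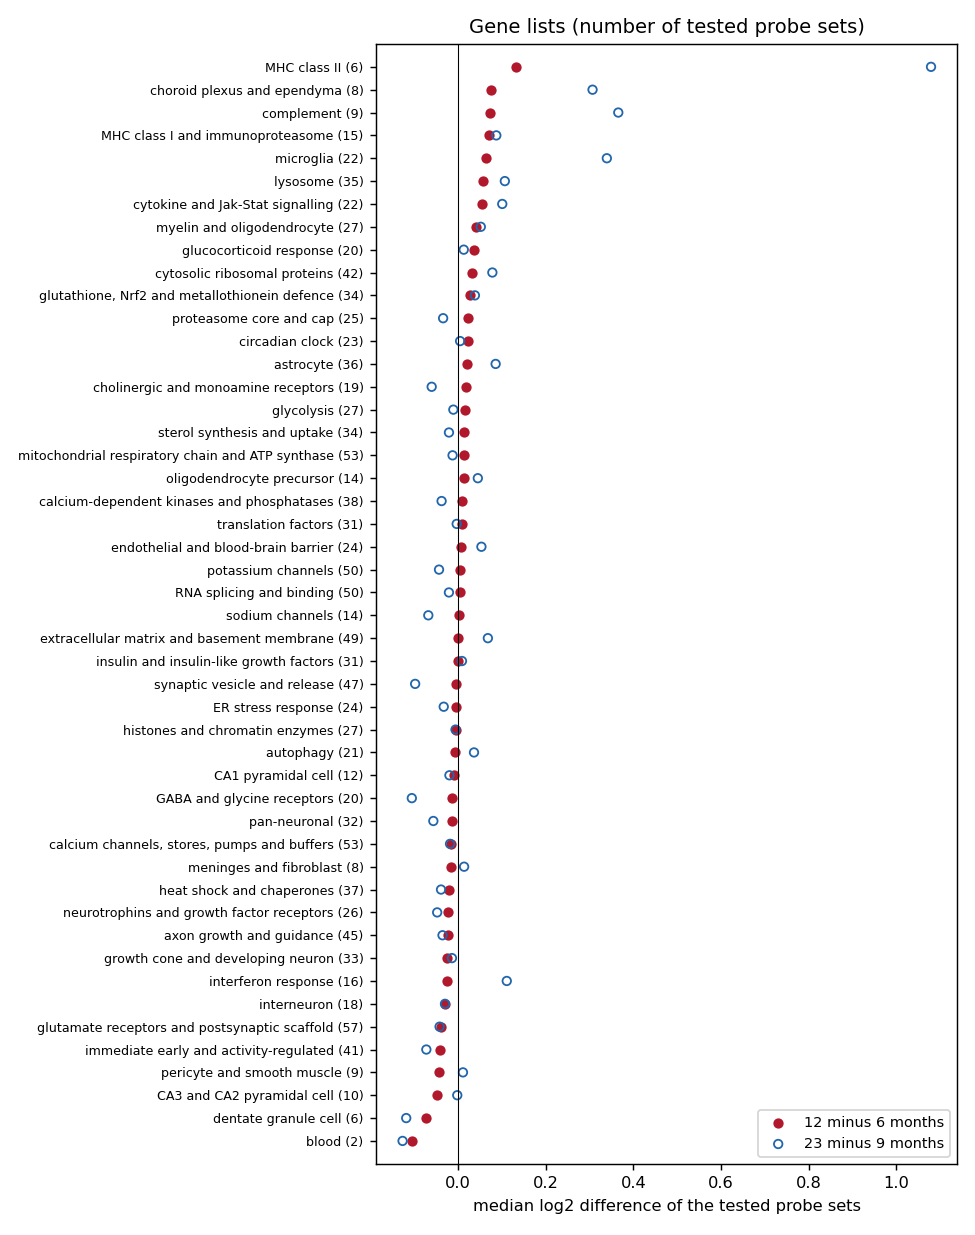
Each row is 1 gene list with its number of tested probe sets, and the horizontal axis is the median log2 difference over them, for 12 minus 6 months (filled) and 23 minus 9 months (open). The filled points span −0.11 to 0.13, and the class II, complement, microglia and choroid plexus lists have their open points farther to the right than their filled ones.

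Single genes of the remaining lists with an unadjusted p under 0.05 follow, none of which passed. Higher at 12 months were Mgst1, a membrane-bound glutathione transferase (0.26 ± 0.08), S100a6, a calcium-binding protein (0.40 ± 0.13), Il6st, the signal-transducing receptor of the interleukin-6 family (0.21 ± 0.08), Eif4ebp1, a repressor of translation initiation (0.20 ± 0.08), Slc13a4, a sulfate transporter (0.32 ± 0.13), Srebf2, the transcription factor of sterol synthesis (0.14 ± 0.06), Chrm3, a muscarinic receptor (0.17 ± 0.08), Camk2n1, an inhibitor of calcium/calmodulin-dependent kinase II (0.21 ± 0.09), Psmb1, a proteasome subunit (0.13 ± 0.06), and Slc12a2, a chloride importer (0.13 ± 0.06). Lower were Sema3c, a secreted guidance cue (−0.31 ± 0.12), Srsf10 and Rbm17, splicing factors (−0.49 ± 0.20 and −0.17 ± 0.07), Gss, glutathione synthetase (−0.31 ± 0.13), Sv2b, a synaptic vesicle protein (−0.17 ± 0.07), and Dnajb5, a co-chaperone (−0.32 ± 0.14). Srsf10 reached a signal of 100 on 3 of 9 arrays of 12 months and 5 of 9 of 6 months.

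The 23-month and 9-month arrays gave a set of genes chosen on other animals. The limma test of 23 against 9 months on the same 9166 probe sets called 59 (0.644%), 51 of which rose (0.556%) and 8 fell (0.0873%). Those 51 were then looked up on the 12-month and 6-month arrays. At 12 against 6 months 49 of the 51 were higher (96.1%), where 48.9% of all tested probe sets were, and their median difference was 0.14, against −0.0018 over all. Their median difference at 23 against 9 months was 0.40. Of the 51, 18 had an unadjusted p under 0.05 and were higher (35.3%), against 1.21% of all probe sets. The genes are not independent replicates, so this is a count over genes with no test. Leaving out each of the 18 arrays in turn left 47 to 50 of the 51 higher. Without replicates 5, 8, 9 and 11 of 23 months, which stood apart for haemoglobin, class II or Ttr signals (an alternative chosen after seeing the data), the 23 against 9 month test called 39 rises, of which 36 were higher at 12 against 6 months.

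Those 18 were, in the order of their p at 23 against 9 months, C3, Tmem176a, Npc2, RT1-Da, S100a4, Fcgr2b, Fcer1g, Anxa3, Rnaset2, Ggta1, Ctsd, B2m, Mpeg1, Lamp2, Cd53, Fah, Plaat3 and Pld4. S100a4, a calcium-binding protein of motile cells, averaged 405 ± 116 at 12 months and 316 ± 62.5 at 6 months (SD, n = 9 each), a difference of 0.34 ± 0.14, and rose by 0.74 at 23 against 9 months. Pld4, a phospholipase-family exonuclease of microglia, was higher by 0.31 ± 0.11, and rose by 0.36 at the older pair of ages. Fah, the last enzyme of tyrosine breakdown, was higher by 0.24 ± 0.09, and rose by 0.28. Anxa3, an annexin, was higher by 0.11 ± 0.05, Ggta1, a glycosyltransferase, by 0.23 ± 0.10, and Plaat3, a phospholipase, by 0.14 ± 0.05.

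**Figure D4:**
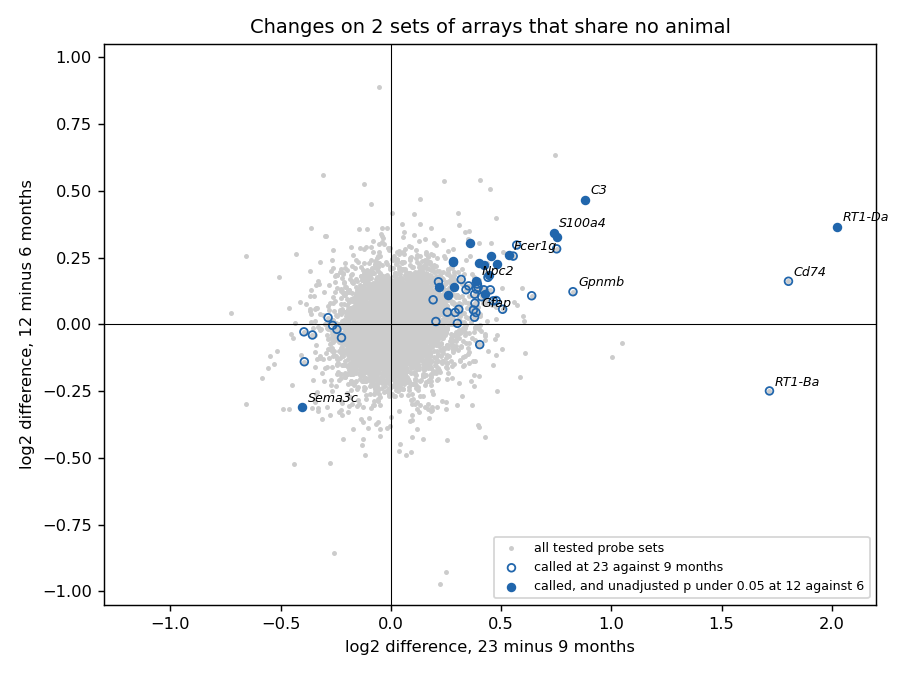
Each point is a probe set, with its log2 difference at 23 against 9 months on the horizontal axis and at 12 against 6 months on the vertical axis, measured on arrays that share no animal. The 59 blue points passed at 23 against 9 months. They are filled where the unadjusted p at 12 against 6 months was under 0.05, and open circles otherwise. Of the 51 that rose at 23 against 9 months, 49 lie above 0 on the vertical axis, and RT1-Ba is the farthest below it.

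The other 31 of the 49 were higher by less against their error. Gfap rose by 0.39 at 23 against 9 months and was higher by 0.04 ± 0.06 at 12 against 6 months. Cd63, a tetraspanin of late endosomes, rose by 0.37 at the older pair and was higher by 0.05 ± 0.07 at the mid-life pair, and Vim, an intermediate filament protein, rose by 0.46 and was higher by 0.09 ± 0.11 in the same way. For Lyz2, lysozyme, the difference was 0.34 at 23 against 9 months and 0.13 ± 0.08 at 12 against 6 months. The 2 members that were lower at 12 months were RT1-Ba and Phyhd1 (−0.08 ± 0.10).

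The 8 that fell at 23 against 9 months were Dlg3, Gucy1b1, Pkia, Marchf5, Pak1, Kcnab1, Sema3c and Syn1. At 12 against 6 months 7 of them were lower, with a median of −0.03. Sema3c alone had an unadjusted p under 0.05, at means of 196 ± 30.1 at 12 months and 246 ± 54.5 at 6 months (SD, n = 9 each). Dlg3, a scaffold protein of excitatory synapses, was lower by 0.14 ± 0.09, and Syn1, a synaptic vesicle phosphoprotein, differed by −0.0038 ± 0.07.

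The 12 leading probe sets in each direction were also looked up at the other ages. Over all 9166 probe sets the median difference at 23 against 9 months was −0.00054, so higher and lower probe sets were about equally common. Of the 12 on the higher side 11 were higher there and 7 rose by the test (51 of all 9166 did, 0.556%). These 7 were C3, Fcer1g, Rnaset2, Mpeg1, Cd53, Npc2 and Tmem176a. Ppil2, Evi2a and Tmod1 differed there by 0.03, 0.03 and 0.06, and Ap1m1 by −0.05. On the lower side 8 of 12 were lower at 23 against 9 months, not far from the even split of all probe sets. By the test 0 of these 12 fell (8 of all 9166 probe sets did, 0.0873%). The 2 sides were not compared with a test.

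C3 had mean signals of 336 at 6 months, 374 at 9 months, 463 at 12 months and 701 at 23 months, and rose by 0.88 at 23 against 9 months (limma adjusted p = 7.03e-06). Fcer1g had means of 859 at 6 months, 890.1 at 9 months, 1027 at 12 months and 1307 at 23 months. Npc2 had means of 2179 at 6 months, 2281 at 9 months, 2445 at 12 months and 2978 at 23 months. For C3 every array of 23 months, at 565 or more, was above the 12-month highest of 559.

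**Figure D5:**
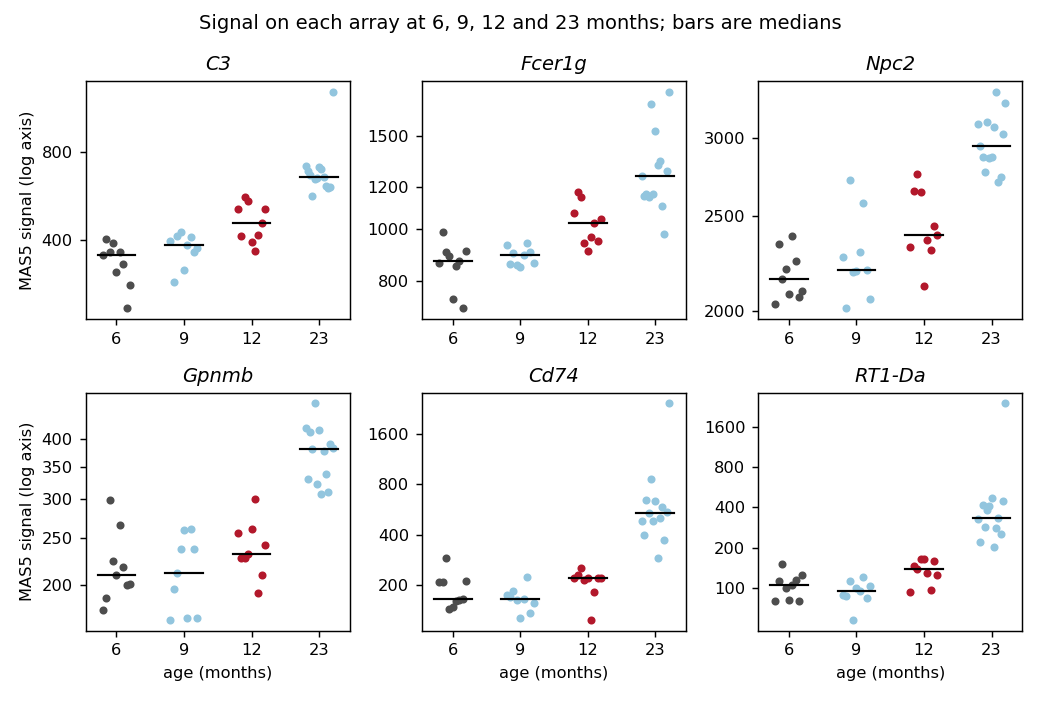
The vertical axis is the MAS5 signal on a log axis for 6 genes, the horizontal axis the age of 6, 9, 12 or 23 months, each point 1 animal and each bar a median. The medians of C3, Fcer1g and Npc2 are higher at each later age, and all 23-month points of Gpnmb, at 308.5 or more, lie above all points of the other 3 ages.

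A direct test of the difference between the 12 against 6 and the 23 against 9 month differences, in a fit of 40 arrays, called 3 probe sets (0.0327%). The pairs of ages are 6 and 14 months apart, so the test compares changes and not rates. Cd74 differed by −1.64 ± 0.29 (adjusted p = 0.0084), with 0.16 ± 0.14 at 12 against 6 months and 1.80 ± 0.22 at 23 against 9 months. RT1-Da differed by −1.66 ± 0.34 (adjusted p = 0.038), with 0.37 ± 0.15 at 12 against 6 months and 2.02 ± 0.27 at 23 against 9 months. Gpnmb, a glycoprotein of lipid-laden macrophages and microglia, differed by −0.70 ± 0.14 (adjusted p = 0.030), with 0.12 ± 0.10 at 12 against 6 months and 0.83 ± 0.09 at 23 against 9 months. In each of the 3 genes the mid-life difference was thus the smaller one. Replicate 9 of 23 months carried 2439 units of Cd74, where the next highest had 864, and 2382 of RT1-Da, where the next had 469.9. Without that array the same 3 were called, with −1.47, −1.44 and −0.70 for Cd74, RT1-Da and Gpnmb. C3 did not pass this test, with a difference of −0.42 between its changes.

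Because C3, Cd53 and Ctsd were among the 18 genes above, and stand for complement, a cell surface protein of microglia and the lysosome, the sequence around their transcription starts is shown. They were chosen after the values had been seen. The sequences are from RefSeq, assembly GRCr8, 5′ to 3′ on the strand of the gene, and run over 250 bases before and 50 bases after the start. C3 lies at chr9:2201290-2201589, Cd53 at chr2:197087847-197088146 and Ctsd at chr1:206968772-206969071, all 3 on the minus strand. Capitals mark every match, on either strand, to TTGCNNAA, the core that C/EBP factors of the acute-phase response bind, to GAGGAA, the core of sites of the myeloid factor PU.1, and to CACGTG, the core of the lysosomal gene element bound by TFEB. No 2 matches overlapped.
C3: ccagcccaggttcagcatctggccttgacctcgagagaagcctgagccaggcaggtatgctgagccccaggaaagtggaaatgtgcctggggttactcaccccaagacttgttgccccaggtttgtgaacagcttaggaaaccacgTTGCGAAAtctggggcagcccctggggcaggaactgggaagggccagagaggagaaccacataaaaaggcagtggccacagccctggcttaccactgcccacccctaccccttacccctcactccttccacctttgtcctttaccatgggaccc
Cd53: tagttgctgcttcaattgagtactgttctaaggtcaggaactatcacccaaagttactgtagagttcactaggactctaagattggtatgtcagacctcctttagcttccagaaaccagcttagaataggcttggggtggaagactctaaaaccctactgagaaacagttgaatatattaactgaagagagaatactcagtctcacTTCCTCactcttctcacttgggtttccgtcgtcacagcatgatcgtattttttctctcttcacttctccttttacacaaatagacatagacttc
Ctsd: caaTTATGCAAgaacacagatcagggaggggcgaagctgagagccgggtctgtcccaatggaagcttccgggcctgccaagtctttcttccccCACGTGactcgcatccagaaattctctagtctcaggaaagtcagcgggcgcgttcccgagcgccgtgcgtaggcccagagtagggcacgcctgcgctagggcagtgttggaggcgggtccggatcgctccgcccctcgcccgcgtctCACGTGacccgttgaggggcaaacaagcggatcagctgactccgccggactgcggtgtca
C3 had 1 match, TTGCGAAA, which began 104 bases before the start. Cd53 had 1 match, TTCCTC, the reverse complement of GAGGAA, 44 bases before the start. Ctsd had CACGTG at 157 and at 10 bases before the start, and TTATGCAA, a reverse match to TTGCNNAA, at 247 bases before it.

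A match is only a run of letters, and such runs were common. Of 33469 rat promoters of this length, 10.6% held TTGCNNAA, 27.6% held GAGGAA and 6.42% held CACGTG. Of the 18 genes 16 had an entry, and of these 3 held TTGCNNAA (C3, Ctsd and Npc2), 5 held GAGGAA (Anxa3, Cd53, Lamp2, S100a4 and Tmem176a) and 1 held CACGTG (Ctsd). The arrays did not measure binding by any factor.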

How the data were processed

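RNA of the left CA1 was measured on Affymetrix RAE 230A arrays. The deposited values are intensities on a linear scale, made by the authors with MAS5 (per the submitters' processing notes) and scaled to a target of 500 (per the series' design text). After 2% was trimmed at each end, the mean of every array was 500.1. The table has 15923 probe sets, 57 of them controls. The platform annotation gives 1 symbol to 12783 probe sets that are not controls and to 6 controls, several symbols to 312 and no entry to 2822. Entrez IDs of 12748 were found in the RefSeq table of GRCr8, which updated their symbols. No column was left unused (0). Between any 2 of the 18 arrays the SD of the log2 difference was at least 0.246, so no pair of arrays held the same values.

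Signals under 16 were set to 16, which concerned 0.0164% of values, and log2 was taken with no further scaling. Presence calls, scan dates and behaviour scores are not used here, so batches were not tested. Differences were tested in R 4.3.3 with limma 3.58.1 (lmFit, eBayes with a variance trend) on the 18 arrays, 23 against 9 months on 22 arrays of their own, and the difference of the changes on 40 arrays, with Benjamini-Hochberg adjustment over 9166 probe sets. Exact permutation tests used SciPy 1.17.1. The limma fit was also run on simulated data, and its outcome there is not given here. The genes named were the 12 of smallest p in each direction, other probe sets of these genes, and the 2 of smallest unadjusted p under 0.05 in each list. The genes called at 23 against 9 months were named after their values were seen, as were all other list members, with or without such a p. The members and lists were chosen with earlier results of these data known. Alternatives covered the floor, the signal filter, normalization, 1 probe set per gene, the variance model, array weights, the replicate block, the arrays fitted together and each array left out.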

Additional observations from a re-analysis of the deposited data

Results flagged for a closer look

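For the 57 probe sets named by their p, or as other probe sets of leading genes, 114 groups of 9 arrays were examined. A single array far from the others was found in 11 groups, where chance gives about 5% of groups. On the array of 6 months replicate 9, Syt17 was the highest of its group at 333.9, Col4a5 the lowest at 150.1 and Chrm3 the lowest at 342.8. The second probe set of Syt17 was lowest at 972.7 on 6 months replicate 3. Psmb9 was lowest at 84.6 on 12 months replicate 4, and on 6 months replicate 1 it was lowest at 59.3. On 12 months replicate 5, Lamb1 was lowest at 141.4 and Slc12a2 highest at 3147.7. Slc25a23 was lowest at 1030.6 on 12 months replicate 1, Nosip at 200.2 on 12 months replicate 3, and Apod at 2109.2 on 12 months replicate 6.

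For 3 genes the 12 against 6 month difference was smaller than the 23 against 9 month difference by limma's test of the contrast itself. The difference between them was −1.64 for Cd74, −1.66 for RT1-Da and −0.70 for Gpnmb on the log2 scale.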

How the results depend on the processing

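No probe set was called between 12 and 6 months in any alternative except the fit of all 49 arrays, which called 1 (Rpa3, adjusted p = 0.030). Leaving out each of the 18 arrays gave 0 to 0 calls and 183 to 277 probe sets at an unadjusted p under 0.05, where 221 were reported. Without a filter on signal, 12783 probe sets were tested and 366 had such a p (2.86%, against 2.41% with the filter), and the cause of the larger share was not tested. The 57 differences named by their p, or as other probe sets of leading genes, kept their direction in all 1860 refits. Of them 0 reversed and 1 became called, and list members named in addition were not counted. Most of these probe sets were named for a small p on these same arrays, which makes a reversal unlikely. Their kept direction is therefore no support for the differences. C3 ranged between 0.40 and 0.51 with an adjusted p of 0.366 at the lowest, and Rpa3 between −0.52 and −0.44 with an adjusted p of 0.030 to 0.9997. At 23 against 9 months, leaving out an array gave 43 to 75 calls, the fit of 40 arrays gave 65, and leaving out replicates 5, 8, 9 and 11 of 23 months gave 45, where 59 were reported. Of the 51 rises there, leaving out an array gave 47 to 50 higher and 16 to 22 with an unadjusted p under 0.05 at 12 against 6 months. The lookup under each alternative, the 4 arrays left out and the test without replicate 9 of 23 months were chosen after seeing the data.

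The replicate numbers were fitted as a block, although no label ties animals of the same number to each other. The block gave 0 calls and 295 probe sets at an unadjusted p under 0.05, against 221 without it. Same-numbered arrays correlated in their deviations by −0.06 to 0.233, over 0.1 in 6 of 9 pairs. Of the 12-month arrays 5 of 9, and of the 6-month arrays 3 of 9, correlated best with their own number. The main fit does not take the numbers into account, and whether they mark something the animals shared was not tested. Probe sets of low signal had wider intervals, and Hcrt, Srsf10, RT1-Ba and Psmb9 had arrays under 100. So did other named probe sets, among them those of RT1-Da, Grm5, Gss, Slc13a4, Dnajb5, Psip1 and Elk1. Some of Kcnj6 and the second of Mpeg1 did as well. RT1-Da reached 100 on 7 of 9 arrays of 12 months and on 5 of 9 of 6 months.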
